A study of Mus musculus with 18 samples.

Results

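The set described here comprised 40 genes of glucose and pyruvate metabolism, out of 55421 genes in the deposited count table. It was chosen by gene symbol: transporters of glucose and of lactate, phosphoglucomutases, the enzymes of glycolysis, both lactate dehydrogenases, the enzymes that pass pyruvate on to the citric acid cycle, and enzymes of the citric acid cycle with both malate dehydrogenases. All 40 symbols were found, and 39 had enough counts to be tested. The exception was Pgm1, known as a broadly expressed enzyme, with 0 to 6 reads per mouse and 26 over all mice. Itgb3bp, whose exons overlap 13.6% of Pgm1 on the opposite strand, had 35 reads over all mice, and why both stood near 0 was not tested. Aldoa was listed under a second identifier with 3 to 26 reads per mouse, and its values here are those of the main entry.

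RNA was sequenced from the striatum of 18 C57BL/6 mice between 12 and 14 months of age, with 1 library per mouse. zQ175 is a full-length knock-in model of Huntington’s disease (HD) in which mouse Htt carries a chimeric human and mouse exon with an expanded CAG repeat, used in the heterozygous state, and CK2α’(+/-) mice lack 1 allele of Csnk2a2, the gene for the catalytic CK2α’ subunit of protein kinase CK2. There were 5 WT mice, 5 zQ175 mice, 3 CK2α’(+/-) mice and 5 zQ175:CK2α’(+/-) mice, all perfused under anesthesia before dissection. Both alleles are germline, so every cell of the animal carries them. The CK2α’ line came from a mixed 129/SvEv-C57BL/6J background. The paper states that it was crossed with WT and zQ175 mice over many generations and that all mice used were C57BL/6J. The sex of each mouse is not given in the labels, and the groups held females and males in unequal ratios.

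Glycolysis splits glucose into pyruvate in the cytosol, yielding ATP and NADH, and pyruvate is either reduced to lactate by lactate dehydrogenase or oxidized to acetyl-CoA by the pyruvate dehydrogenase complex and burned in the citric acid cycle of mitochondria. In brain the pathway is divided between cells: astrocytes take up much glucose and can release lactate, and neurons can oxidize it. The striatum is formed mainly by inhibitory projection neurons, the cells most affected in HD, and altered energy metabolism is a long-studied feature of the disease.

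Total counts ranged from 13612381 to 22702547 per library. Csnk2a2, the targeted gene, lay between 3.88 and 4.32 on the log2 CPM scale in the 8 mice with 1 allele and between 4.88 and 5.23 in the 10 mice with 2 alleles (p = 2.29e-05 by an exact permutation test, two-sided). CPM give each gene’s count relative to its library’s total, adjusted for library composition (TMM). Of the 10 markers of striatal projection neurons, 10 had lower fitted levels in zQ175 than in WT mice and 3 passed the test described below; for oligodendrocytes these numbers were 7 of 7 and 5, for microglia 7 of 7 and 2, and for astrocytes 9 of 9 and 0. All 6 markers of cortical excitatory neurons were higher in zQ175 mice, of which 1 passed, and their summed level was 60.7 to 329.6 CPM in zQ175 mice against 23.3 to 55.5 CPM in WT mice. Choroid plexus markers summed to between 975 and 3082 CPM in 4 libraries (WT replicates 1 and 3, CK2α’(+/-) replicate 1 and zQ175:CK2α’(+/-) replicate 2) and to 12.4 to 22.4 CPM in the rest. In whole tissue, fewer cells of a type and less RNA per cell cannot be told apart.

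Levels of different genes were compared per length, as TPM (counts divided by gene length and scaled to the same sum in each library) computed from the counts and the deposited exon lengths. These lengths sum all annotated exons and for most genes exceed the longest coding transcript, by unequal amounts. They were 2911 against 1549 bases for Aldoa, 1570 against 1304 for Ldhb and 4133 against 1420 for Gapdh. The order of genes by TPM therefore depends on the length used. The lactate dehydrogenase subunit Ldhb (315 ± 44.4 TPM, SD, n = 18 mice) and aldolase A, Aldoa (312 ± 38.1 TPM), had the highest means and did not differ beyond their spread. The cytosolic malate dehydrogenase Mdh1 (197 ± 26.2 TPM), pyruvate kinase Pkm (184 ± 22.1 TPM), the aldolase of astrocytes Aldoc (174 ± 32.5 TPM) and the neuronal enolase Eno2 (159 ± 20.7 TPM) came next, each within the spread of its neighbour. At the low end stood the lactate and pyruvate transporter Slc16a7 (4.76 ± 1.14 TPM), the phosphoglucomutase Pgm2 (4.36 ± 1.16 TPM), the inducible hexokinase Hk2 (1.10 ± 0.253 TPM) and Pgm1 (0.042 ± 0.042 TPM). Gapdh, known as an abundant transcript, was measured at only 27.3 ± 5.28 TPM. Reads of low mapping quality had been removed, and 88.0% of the Gapdh transcript is at least 95% identical to some other annotated gene, 81 genes in all. The effects of that sharing and of the exon length on the level were not tested. Such sequence sharing also covered 85.6% of the Eno1 transcript, 76.8% of Ldhb, 71.2% of Pdhb, 68.8% of Pgk1 and 65.5% of Pkm. For Gpi1, Ldha, Pgam1, Tpi1 and Pgm2l1 the shares were 55.3%, 55.0%, 43.1%, 19.3% and 1.2%, and Aldoc, Idh3b and Slc16a7 had none.

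**Figure D1:**
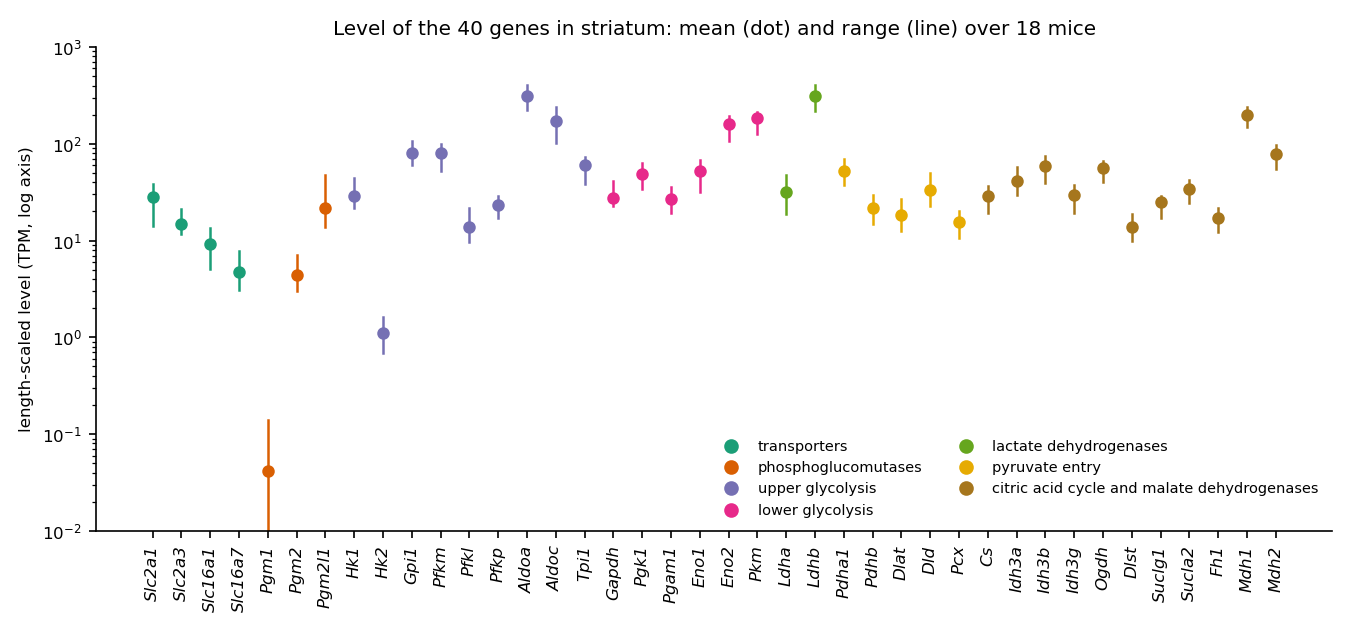
Length-scaled level (TPM, log axis) of each of the 40 genes, with the mean over 18 mice as a dot and the lowest to highest mouse as a line, coloured by role. Ldhb and Aldoa stand highest at 315 and 312 TPM, and Pgm1 stands lowest at 0.042 TPM.

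Isozymes of the same step differed widely in measured level. Hk1, the hexokinase bound to mitochondria in brain, exceeded Hk2 by a TPM ratio of 29.3 ± 3.35 (SD, n = 5) in WT mice, and the ratio was 24.5 ± 5.28 in zQ175 mice. Ldha, the muscle-type subunit, was present at a ratio of 0.1004 ± 0.0129 to Ldhb, the heart-type subunit, in WT mice and of 0.107 ± 0.0329 in zQ175 mice. The ubiquitous enolase Eno1 stood to the neuronal Eno2 at 0.353 ± 0.0257 in WT, 0.318 ± 0.0263 in zQ175, 0.345 ± 0.0197 in CK2α’(+/-) (n = 3) and 0.306 ± 0.0280 in zQ175:CK2α’(+/-) mice. For phosphofructokinase, which controls the flux through glycolysis, the muscle-type Pfkm exceeded the liver-type Pfkl by 6.62 ± 0.789 in WT and 5.29 ± 0.713 in zQ175 mice. Aldoa exceeded Aldoc by 1.82 ± 0.201 in WT, 1.96 ± 0.288 in zQ175, 1.497 ± 0.106 in CK2α’(+/-) and 1.93 ± 0.172 in zQ175:CK2α’(+/-) mice. The ranges of WT and zQ175 mice overlapped in each of these ratios, most narrowly in that of Pfkm to Pfkl, whose lowest WT value was 5.92 and highest zQ175 value 5.94. The ratios are descriptions and were not tested. They carry the limits of shared sequence and exon length given above. For Eno1 85.6% of the transcript was shared and for Eno2 0%, with exon lengths of 5379 and 4705 bases against transcripts of 2027 and 2795.

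Differences were tested by quasi-likelihood in edgeR, with all 18 libraries in the fit, and passing required an FDR (p adjusted after Benjamini and Hochberg over the 20914 genes tested) under 0.1. In zQ175 relative to WT mice 3 of the 39 genes passed: the glucose bisphosphate synthase Pgm2l1 rose, and Eno1 and Ldhb fell. Among all genes tested, 1.1% passed in this comparison, 0.387% as higher and 0.712% as lower. Over the 39 genes 15 fitted changes were positive and 24 negative, with a median log2 fold change of -0.064 against 0.0042 over all genes. At an unadjusted p under 0.05 there were 4 higher and 11 lower members, where 6.79% and 7.1% of all genes were higher and lower. DESeq2 at its default settings called 5 members (the same 3 with Pkm and Tpi1), against 5.15% of its genes. Left out singly, WT replicates 1 and 3 and zQ175 replicates 1 and 5 each reduced the count to 0, WT replicate 5, zQ175 replicates 2 and 3, CK2α’(+/-) replicate 2 and zQ175:CK2α’(+/-) replicates 1 and 3 each reduced it to 1 (Pgm2l1), and WT replicate 2 raised it to 7. Without the 4 libraries rich in choroid plexus markers it was 0, with log2 fold changes of 0.51 for Pgm2l1, -0.23 for Eno1 and -0.28 for Ldhb. It was also 0 when only the 2 groups compared were in the fit (FDR = 0.2075 for Eno1 and 0.209 for Ldhb), and with the Xist level as covariate Pgm2l1 alone passed (FDR = 0.104 for Eno1 and 0.121 for Ldhb). Ldhb also missed the threshold with DESeq2 size factors in edgeR and Eno1 without the filter on low counts, each at an FDR of 0.101. The summed level of the 40 genes was 6292 ± 215 CPM in WT mice (SD, n = 5) and 5846 ± 201 CPM in zQ175 mice, with 6176 ± 293 CPM in CK2α’(+/-) (n = 3) and 6002 ± 187 CPM in zQ175:CK2α’(+/-) mice.

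Averaging the zQ175 effect over both CK2α’ backgrounds used all 10 mice with and 8 mice without the zQ175 allele. Group means had equal weight, so that the 3 CK2α’(+/-) mice weighed as much as the 5 WT mice. In this contrast 5 of the 39 genes fell and none rose in edgeR: Aldoc, Ldhb, Eno1, the isocitrate dehydrogenase subunit Idh3b and the pyruvate dehydrogenase subunit Pdhb. Of all genes tested, 4.9% passed, 2.11% as higher and 2.78% as lower. The log2 fold changes of these 5 genes ran from -0.31 to -0.19, which are changes of small size. The median of the 39 genes was -0.052 against 0.0057 over all genes, and DESeq2 called 8 members against 8.78% of its genes. These were the same 5 with Pkm and Tpi1, which were lower, and the hexokinase Hk1, which was higher (log2 fold change 0.16, DESeq2 adjusted p = 0.0741, edgeR FDR = 0.132). Without CK2α’(+/-) replicate 3 only Aldoc passed, without WT replicate 2 there were 7, and without the 4 libraries rich in choroid plexus markers the count was 0, with -0.30 for both Aldoc and Ldhb. Without the filter on low counts the Idh3b and Pdhb calls were lost (FDR = 0.113 and 0.163). Over all genes this contrast called 1024, which became 348 without CK2α’(+/-) replicate 3, 1161 without WT replicate 2 and 126 without the 4 libraries rich in choroid plexus markers.

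The other contrasts called no member by edgeR. For zQ175:CK2α’(+/-) against WT, 0 of 39 passed, where 0.0143% of all genes did, and 0 were higher and 7 lower at an unadjusted p under 0.05, against 4.27% and 4.85% of all genes. DESeq2 called 1 member there, Pdhb, against 0.722% of its genes. For zQ175:CK2α’(+/-) against zQ175, 0 of 39 passed, where 0.0143% of all genes did, 1 member had an unadjusted p under 0.05, where 6.27% of all genes did, and DESeq2 called 1, Pgm2l1, against 0.146% of its genes. In that comparison 26 fitted changes were positive and 13 negative, with a median of 0.033. For CK2α’(+/-) against WT, 0 of 39 passed by edgeR, where 0.0143% of all genes did, 0 by DESeq2, where 0.0293% did, and 0 had an unadjusted p under 0.05, where 4.48% of all genes did. The interaction, which asks whether the zQ175 effect differed with the CK2α’ genotype, called 0 of 39 by edgeR, where 0.00478% of all genes passed, and 0 by DESeq2, where 0.0747% did, with 2 members (Pgm2l1 and Pgm2) at an unadjusted p under 0.05, where 5.39% of all genes were. These comparisons share WT, zQ175 or both kinds of libraries and are not independent of each other.

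**Figure D2:**
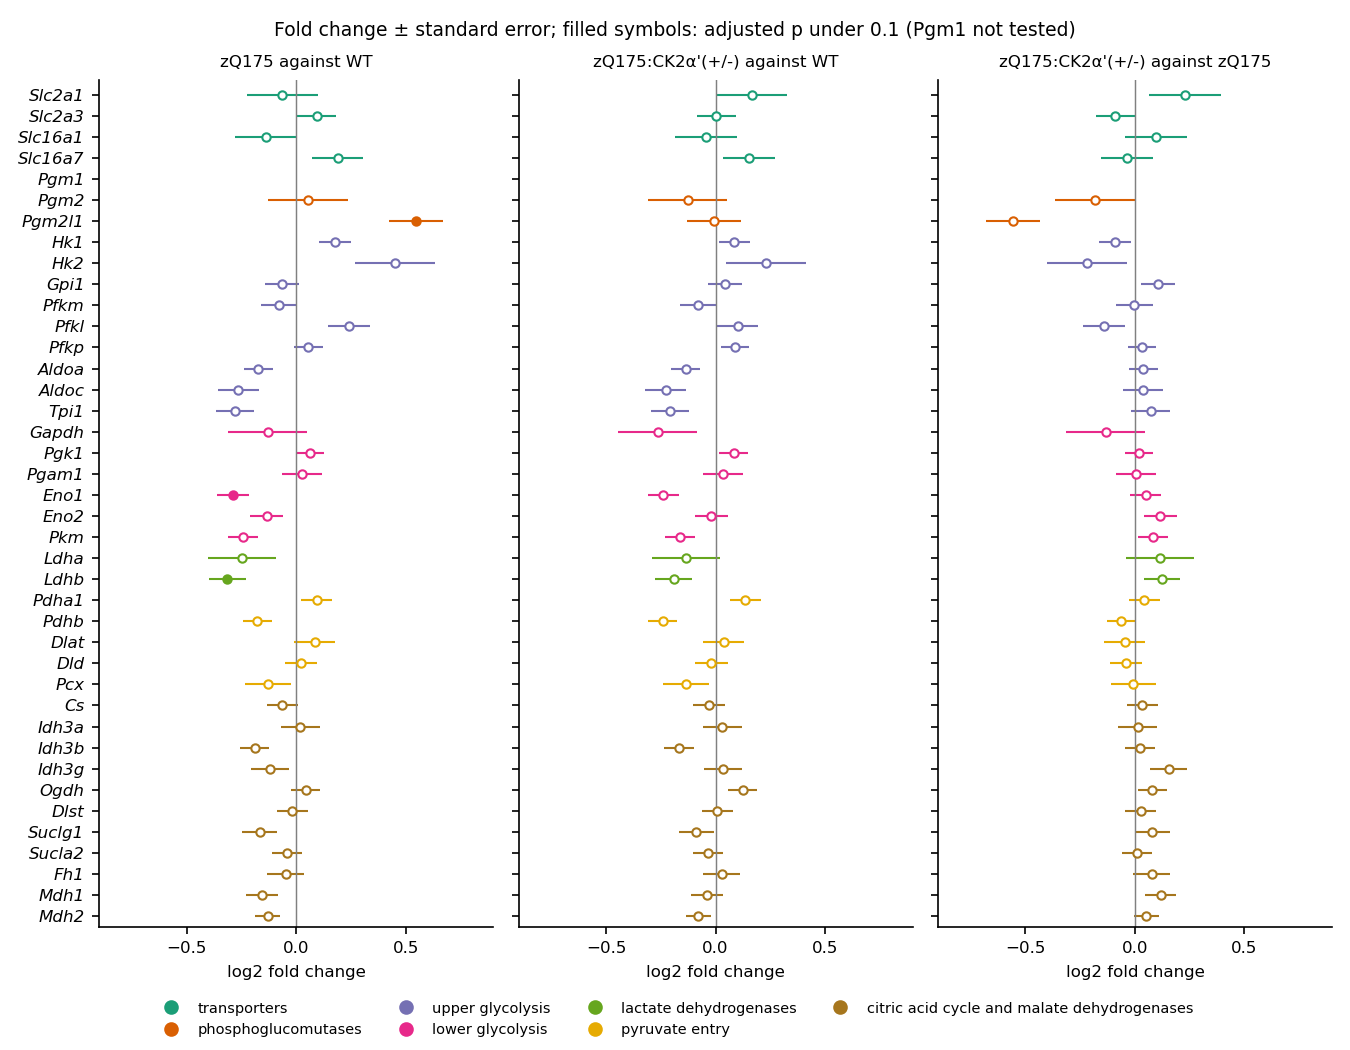
Log2 fold change (x axis) with its standard error for the 39 tested genes in 3 comparisons, ordered and coloured by role, with filled symbols where the adjusted p was under 0.1. Pgm2l1 has the value farthest from 0 in zQ175 against WT (0.55, followed by Hk2 at 0.45 ± 0.18 SE) and in zQ175:CK2α’(+/-) against zQ175 (-0.56).

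The 4 transporters carry fuel between cells: Slc2a1 is the glucose transporter of blood vessels and astrocytes, Slc2a3 that of neurons, and Slc16a1 and Slc16a7 are monocarboxylate transporters for lactate and pyruvate, the latter mainly of neurons. None passed in any of the 6 contrasts by either tool, with log2 fold changes in zQ175 against WT between -0.14 (Slc16a1) and 0.19 (Slc16a7). Slc16a7, which had the lowest p of the group, measured 34.9, 43.7, 30.2, 33.7 and 29.4 CPM in the 5 WT mice and 33.8, 42.5, 30.9, 43.4 and 45.4 CPM in the 5 zQ175 mice. Its levels were 37.8, 34.6 and 32.3 CPM in CK2α’(+/-) mice and 36.6, 40.8, 36.6, 35.03 and 42.1 CPM in zQ175:CK2α’(+/-) mice. All 4 groups overlapped, and the difference between zQ175 and WT (0.19 ± 0.12 SE on the log2 scale, edgeR FDR = 0.503) was not distinguishable from the spread between mice. Slc2a1 varied most within a group, from 43.3 to 91.1 CPM among zQ175 mice.

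Phosphoglucomutases interconvert the glucose phosphates that link glycolysis to glycogen, and Pgm2l1 (ENSMUSG00000030729, GRCm38 chromosome 7, 100227394 to 100278868) makes the glucose bisphosphate that the other members of the family need as a cofactor, mainly in brain. Pgm2l1 measured 116, 144, 109.5, 109 and 107 CPM in WT mice and 207, 136, 143, 143 and 227 CPM in zQ175 mice. It measured 131, 129 and 134 CPM in CK2α’(+/-) mice and 121, 104, 117, 114 and 126 CPM in zQ175:CK2α’(+/-) mice. zQ175 replicates 1 and 5 stood far above every other mouse, the other 3 zQ175 mice lay within the range set by WT replicate 2, and no zQ175:CK2α’(+/-) mouse reached the lowest zQ175 mouse. Xist, whose level stood in for sex as covariate above, had a log2 CPM of 2.22 and 3.05 in zQ175 replicates 1 and 5. It was 5.56 in zQ175 replicate 3, -0.716 in WT replicate 1 and 3.03 in zQ175:CK2α’(+/-) replicate 5. CK2α’(+/-) replicates 1 and 2 had 2.41 and 1.25, and all other mice at least 9.95. Pgm2l1 passed with that covariate, and the part of sex in its level was not tested further.

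In zQ175 against WT mice the log2 fold change of Pgm2l1 was 0.55 ± 0.12 SE (1.46-fold, edgeR FDR = 0.0610, DESeq2 adjusted p = 0.00510). In zQ175:CK2α’(+/-) against zQ175 mice it was -0.56 ± 0.12 SE (edgeR FDR = 0.328), which missed the threshold in edgeR and passed in DESeq2 (adjusted p = 0.0345). In zQ175:CK2α’(+/-) against WT mice it was -0.0082 ± 0.12 SE (edgeR FDR = 0.996), and in CK2α’(+/-) against WT mice 0.17 ± 0.14 SE (edgeR FDR = 0.999). The interaction was -0.72 ± 0.19 SE (edgeR FDR = 0.811). It was the only member whose zQ175:CK2α’(+/-) and zQ175 groups did not overlap, where 0.564% of all genes lay lower without overlap.

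The sum of general neuronal markers moved with Pgm2l1 within groups, and the cortical sum did so mainly through zQ175 replicate 5. Cortical excitatory neuron markers summed to 81.0, 60.7, 93.8, 83.4 and 329.6 CPM in zQ175 replicates 1 to 5, to 23.3 to 55.5 CPM in WT mice, to 24.5 to 61.4 CPM in CK2α’(+/-) mice and to 24.4 to 54.3 CPM in zQ175:CK2α’(+/-) mice. Markers of neurons in general summed to 4188 and 4141 CPM in zQ175 replicates 1 and 5, the mice with the highest Pgm2l1, to 3719 to 3773 CPM in the other zQ175 mice and to 3344 to 3789.7 CPM in the mice of the remaining groups. After subtraction of group means over the 18 mice, the log2 level of Pgm2l1 had a Pearson correlation of 0.560 with the cortical sum, which fell to 0.213 without zQ175 replicate 5, and of 0.752 with the general neuronal sum, 0.709 without it. The points share libraries and normalization, and the part of these markers in the Pgm2l1 result was not tested. Pgm2, the other tested member of the family, measured 7.18 ± 1.40 CPM in WT and 7.44 ± 1.38 CPM in zQ175 mice, and did not pass in any contrast.

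**Figure D3:**
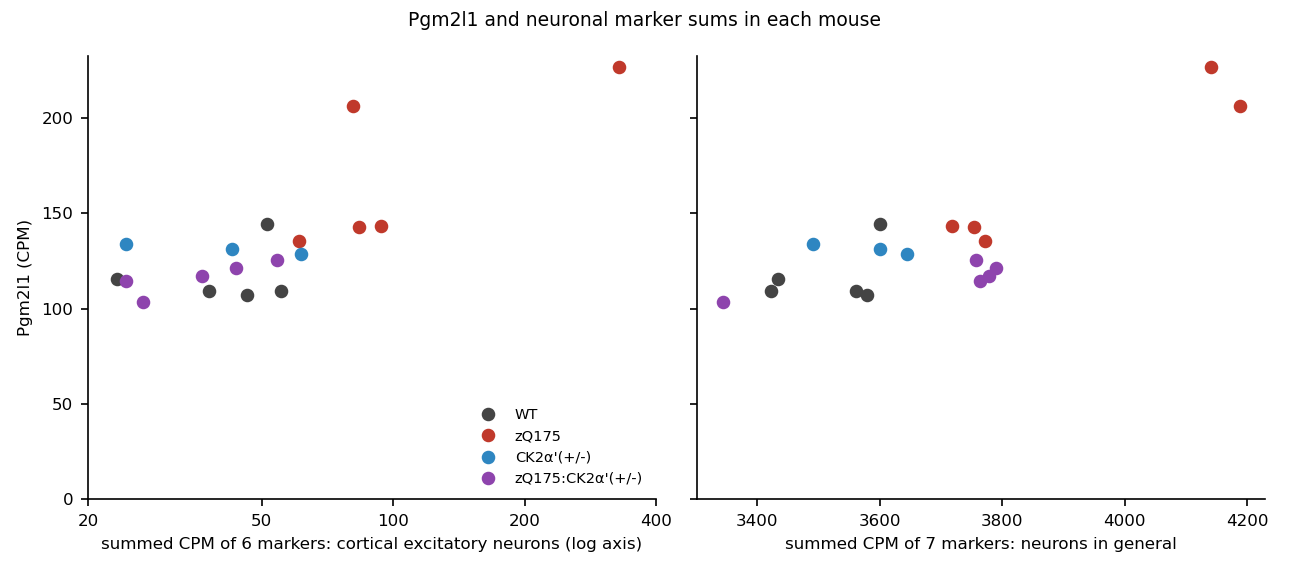
Pgm2l1 level (CPM, y axis) against the summed CPM of markers of cortical excitatory neurons (log axis) and of neurons in general (x axes), 1 point per mouse, coloured by genotype. zQ175 replicates 1 and 5 hold both the highest Pgm2l1 levels (207 and 227 CPM) and the highest general neuronal sums (4188 and 4141 CPM).

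The 9 genes of upper glycolysis, from hexokinase to triosephosphate isomerase, were split in zQ175 mice: 4 fitted changes were positive and 5 negative, none passed in edgeR, and 3 were higher and 3 lower at an unadjusted p under 0.05, where 6.79% and 7.1% of all genes were higher and lower. The 3 higher genes were hexokinases Hk1 (153 ± 6.94 CPM in WT and 173 ± 16.1 CPM in zQ175 mice) and Hk2 (3.69 ± 0.408 and 5.04 ± 0.677 CPM) and the phosphofructokinase Pfkl (56.0 ± 6.22 and 66.2 ± 6.27 CPM), with edgeR FDR of 0.274, 0.275 and 0.258. Within groups over 18 mice, Hk1 correlated at 0.8345 with the summed markers of neurons in general, which were 3422 to 3601 CPM in WT and 3719 to 4188 CPM in zQ175 mice, and at -0.702 with the erythrocyte markers. Hk2 correlated at 0.797 with the erythrocyte and at -0.638 with the general neuronal markers, and Pfkl at -0.669 with erythrocyte, -0.602 with oligodendrocyte and -0.597 with astrocyte markers. The erythrocyte sums fell to 0.0444 CPM in WT mice, near the floor of counting, which limits these correlations. The part of these cell types in the 3 differences was not tested. The 3 lower genes were the aldolases Aldoa (log2 fold change -0.17) and Aldoc (-0.26) and the isomerase Tpi1 (-0.28), with edgeR FDR of 0.241, 0.194 and 0.154. The other phosphofructokinases Pfkm and Pfkp and the isomerase Gpi1 had changes between -0.078 and 0.056.

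Aldoc (ENSMUSG00000017390, chromosome 11, 78322968 to 78327781), the aldolase that marks astrocytes in adult brain, measured 406, 400.2, 446, 353 and 406 CPM in WT mice and 411, 293, 301, 363 and 307 CPM in zQ175 mice. CK2α’(+/-) mice had 396, 467 and 455 CPM and zQ175:CK2α’(+/-) mice 362, 321, 373, 333 and 328 CPM. zQ175 replicates 1 and 4 lay within the WT range, so that those groups overlapped, whereas all 3 CK2α’(+/-) mice lay above all 5 zQ175:CK2α’(+/-) mice. Of the 40 genes 6 were lower in this way in zQ175:CK2α’(+/-) than in CK2α’(+/-) mice (Pgm2l1, Aldoc, Eno1, Pdhb, Pcx and Idh3b), where 4.48% of all genes were, and Gpi1 was higher without overlap, where 3.86% of all genes were. Aldoc fell with zQ175 averaged over the CK2α’ genotypes (-0.31 ± 0.070 SE, edgeR FDR = 0.0221), and its change was -0.26 ± 0.092 SE in zQ175 against WT and -0.23 ± 0.092 SE in zQ175:CK2α’(+/-) against WT (FDR = 0.194 and 0.456). In the averaged contrast 8 of 9 astrocyte markers were lower and 2 passed, and the astrocyte sum was 3409.7 to 4972 CPM in WT and 3345 to 3964 CPM in zQ175 mice. The within-group correlation of Aldoc with that sum was 0.168 over 18 mice, and the part of astrocyte content in the difference was not tested.

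Tpi1, which passed in DESeq2 and not in edgeR and was chosen after its values were seen, measured 119.7, 106, 132, 119 and 132 CPM in WT mice and 103, 91.3, 103, 105 and 99.6 CPM in zQ175 mice. It measured 96.4, 111 and 132 CPM in CK2α’(+/-) mice and 109.5, 92.9, 107, 118 and 100.2 CPM in zQ175:CK2α’(+/-) mice. The WT and zQ175 groups did not overlap, a state that 1.19% of all genes reached in the lower direction, and the DESeq2 adjusted p was 0.0788. The within-group correlation of Tpi1 with the erythrocyte markers was -0.648 over 18 mice, and their part in the difference was not tested. The erythrocyte sums fell to 0.0444 CPM in WT mice, near the floor of counting, which limits this correlation. Over the 40 genes, 4 lay lower without overlap between zQ175 and WT mice (Tpi1, Eno1, Pkm and Ldhb) and none lay higher, where 1.26% of all genes did.

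Lower glycolysis runs from Gapdh to pyruvate kinase and yields the ATP of the pathway. Its 6 genes summed to 1570 ± 80.7 CPM in WT mice, 1380 ± 67.5 CPM in zQ175 mice, 1486 ± 84.5 CPM in CK2α’(+/-) mice and 1452 ± 82.8 CPM in zQ175:CK2α’(+/-) mice. In zQ175 against WT mice 4 of the 6 changes were negative, and Eno1 passed.

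Eno1 (ENSMUSG00000063524, chromosome 4, 150236721 to 150248879), the enolase found in most tissues, measured 212.5, 191, 224, 188 and 218 CPM in WT mice and 181, 148, 162, 177 and 179 CPM in zQ175 mice. CK2α’(+/-) mice had 185, 186 and 204 CPM and zQ175:CK2α’(+/-) mice 182, 171, 178, 177 and 167 CPM. Every mouse with the zQ175 allele lay below every mouse without it, which was so for 0.0669% of all genes and for no other gene of the 40. The log2 fold change was -0.29 ± 0.071 SE in zQ175 against WT (0.819 of the WT level, edgeR FDR = 0.0819) and -0.21 ± 0.054 SE averaged over the CK2α’ genotypes (FDR = 0.0456). It was -0.24 ± 0.071 SE in zQ175:CK2α’(+/-) against WT (FDR = 0.330), again without overlap, where 0.899% of all genes lay lower without overlap. Its most counted copy, Eno1b at 16.3 CPM, changed by -0.15 ± 0.26 SE in zQ175 against WT (FDR = 0.854). The within-group correlation of Eno1 with the summed oligodendrocyte markers, which were 5464 to 7552 CPM in WT and 3566 to 5359 CPM in zQ175 mice, was 0.0865 over 18 mice, and the part of oligodendrocytes in the difference was not tested. Eno2, the enolase of neurons, changed by -0.13 ± 0.075 SE (FDR = 0.440).

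Pkm, pyruvate kinase, makes pyruvate in the last step and was likewise chosen after its values were seen. It measured 646, 627, 685, 633 and 733 CPM in WT mice and 575, 552, 556, 618 and 507 CPM in zQ175 mice, again without overlap. CK2α’(+/-) mice had 589, 609 and 662 CPM and zQ175:CK2α’(+/-) mice 606, 581, 621, 605 and 558 CPM. The zQ175:CK2α’(+/-) mice too lay below all WT mice, though not below all CK2α’(+/-) mice. In zQ175 against WT the change of -0.24 ± 0.069 SE missed the threshold in edgeR (FDR = 0.116) and passed in DESeq2 (adjusted p = 0.0257). Pkm had a within-group correlation of -0.505 with the cortical markers, -0.245 without zQ175 replicate 5, and their part was not tested. Gapdh was the most variable gene of the group, at 81.4 ± 16.8 CPM in WT and 74.4 ± 23.5 CPM in zQ175 mice. The phosphoglycerate kinase Pgk1 and the mutase Pgam1 had fitted changes of 0.062 and 0.027, with FDR of 0.716 and 0.926.

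Lactate dehydrogenase is a tetramer of A and B subunits, and B-rich tetramers are classically tied to tissues that oxidize lactate. Ldhb (ENSMUSG00000030246, chromosome 6, 142490249 to 142507957) measured 366, 328, 375, 370.2 and 358 CPM in WT mice and 287, 300.0, 312, 315 and 231 CPM in zQ175 mice. CK2α’(+/-) mice had 321, 382 and 397 CPM and zQ175:CK2α’(+/-) mice 298, 319.9, 309.8, 335 and 311 CPM. All zQ175 mice lay below all WT mice, with replicate 5 lowest, and the zQ175:CK2α’(+/-) mice lay between and overlapped with both. The log2 fold change was -0.31 ± 0.083 SE in zQ175 against WT (0.804 of the WT level, edgeR FDR = 0.0997, just inside the threshold), -0.27 ± 0.063 SE averaged over the CK2α’ genotypes (FDR = 0.0272) and -0.19 ± 0.083 SE in zQ175:CK2α’(+/-) against WT (FDR = 0.491). The difference between zQ175:CK2α’(+/-) and zQ175 mice was 0.12 ± 0.083 SE (FDR = 0.869).

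zQ175 replicate 5, the mouse with the lowest Ldhb, also had the highest cortical marker sum. The within-group correlation of Ldhb with that sum was -0.696 over 18 mice and -0.344 without that mouse, with markers of neurons in general -0.536 and -0.4085, and with microglial markers 0.487 and 0.482, and their part in the result was not tested. Gm5514, the annotated copy of Ldhb, was counted at 24.5 CPM and changed by 0.16 ± 0.33 SE (FDR = 0.873). Ldha (ENSMUSG00000063229, chromosome 7, 46841475 to 46855627) measured 75.8 ± 7.19 CPM in WT and 63.9 ± 14.0 CPM in zQ175 mice, and its change of -0.25 ± 0.16 SE did not pass (FDR = 0.503). Both subunits together summed to 435 ± 16.4 CPM in WT and 353 ± 33.9 CPM in zQ175 mice.

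**Figure D4:**
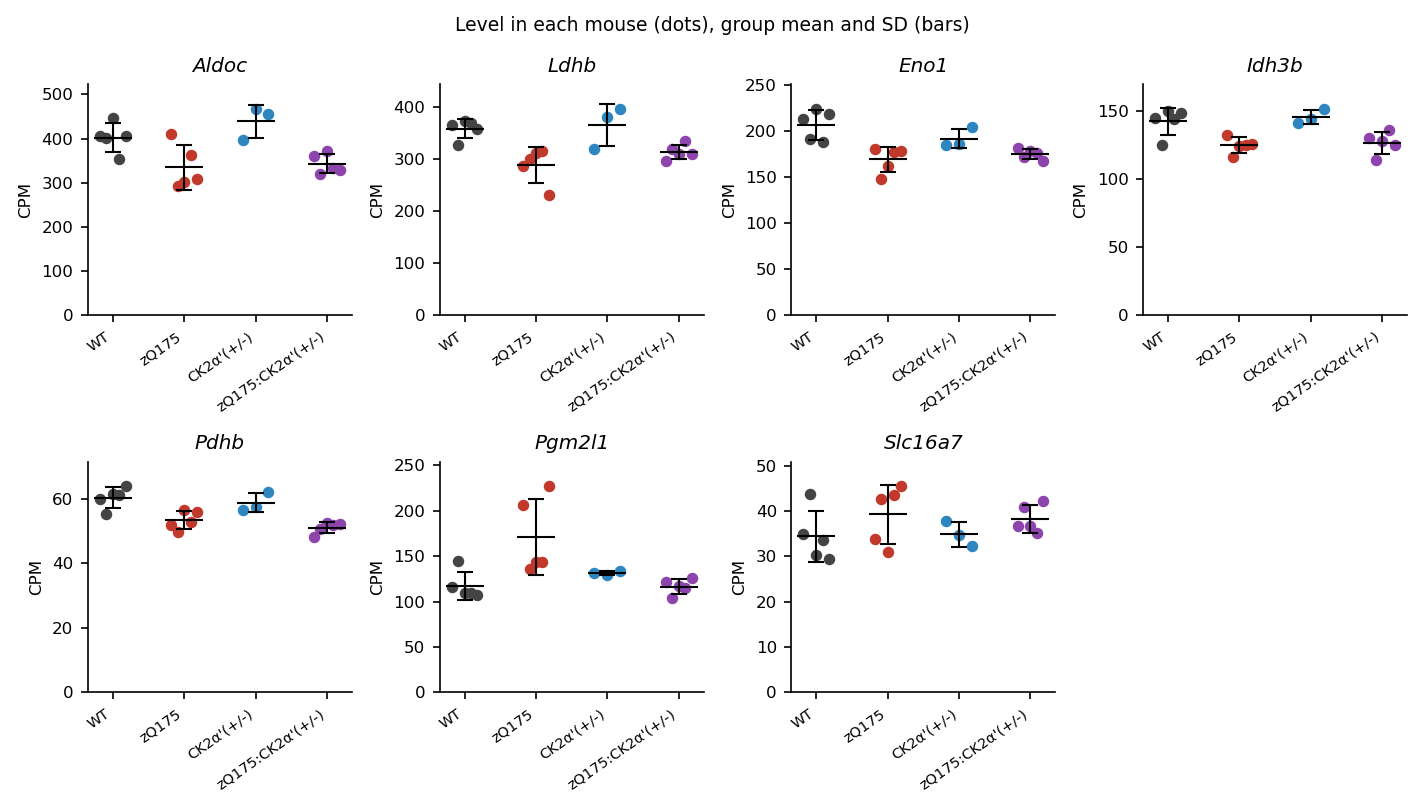
Level (CPM, y axis from 0) of the genes described mouse by mouse, with 1 dot per mouse and bars for the mean and SD of each of the 4 genotypes. For Eno1 and Ldhb every zQ175 mouse sits below every WT mouse, and for Pgm2l1 zQ175 replicates 1 and 5 sit above all other mice.

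Pyruvate enters the cycle as acetyl-CoA through the pyruvate dehydrogenase complex (Pdha1, Pdhb, Dlat and Dld) or as oxaloacetate through pyruvate carboxylase (Pcx), an enzyme of astrocytes in brain. Pdhb (ENSMUSG00000021748, chromosome 14, 8165996 to 8173025), the beta subunit of the first enzyme of the complex, measured 59.8, 55.1, 61.5, 61.1 and 63.8 CPM in WT mice and 51.8, 49.8, 56.3, 52.6 and 55.9 CPM in zQ175 mice. CK2α’(+/-) mice had 56.6, 57.5 and 62.1 CPM and zQ175:CK2α’(+/-) mice 48.2, 50.6, 52.4, 51.8 and 52.1 CPM. WT replicate 2 lay among the zQ175 mice, and every zQ175:CK2α’(+/-) mouse lay below every WT mouse, where 0.899% of all genes did so, and below every one of the 3 CK2α’(+/-) mice, where 4.48% did.

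Pdhb fell with zQ175 averaged over the CK2α’ genotypes (-0.19 ± 0.050 SE, edgeR FDR = 0.0499). It did not pass in zQ175 against WT (-0.18 ± 0.066 SE, FDR = 0.227) or in zQ175:CK2α’(+/-) against WT (-0.24 ± 0.066 SE, FDR = 0.280, DESeq2 adjusted p = 0.0993). Its copy Gm6123 was counted at 2.81 CPM and changed by 0.23 ± 0.41 SE in zQ175 against WT mice. The partner subunit Pdha1 had a change of opposite sign, 0.12 ± 0.054 SE in the averaged contrast (FDR = 0.264). Dlat and Dld lay at 0.054 and -0.0081 and Pcx at -0.18 (FDR = 0.266) in that contrast, and none passed.

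The citric acid cycle oxidizes acetyl-CoA to carbon dioxide. The 11 genes of this group, which count the cytosolic malate dehydrogenase Mdh1 (363 ± 32.0 CPM in WT mice), not itself an enzyme of the cycle, together with cycle enzymes, had changes between -0.19 and 0.044 in zQ175 against WT mice, 9 of them negative, and none passed. At an unadjusted p under 0.05 stood Idh3b, both malate dehydrogenases (Mdh1 at -0.16 and Mdh2 at -0.13, FDR = 0.339 and 0.312) and the succinyl-CoA ligase subunit Suclg1 (-0.17, FDR = 0.352). These 4 were all lower, where 7.1% of all genes were lower at that p. In zQ175:CK2α’(+/-) against zQ175 mice all 11 fitted changes were positive, between 0.0079 (Sucla2) and 0.15 (Idh3g), and none passed, the lowest FDR being 0.832. Over the 39 tested members 26 changes were positive there, and the share of positive changes over all genes is not given here. In that comparison 7 of 7 oligodendrocyte markers (5 at an unadjusted p under 0.05), 7 of 7 microglial markers (5) and 5 of 5 choroid plexus markers (3) had higher fitted levels, and 6 of 6 markers of cortical excitatory neurons (5) had lower ones. No marker passed in edgeR. DESeq2 called 3 of the 6 cortical markers and 0 oligodendrocyte or microglial markers, against 0.146% of its genes. The part of these cell types in the 11 changes was not tested. The summed level of the 11 genes was 1485 ± 59.8 CPM in WT, 1399 ± 53.0 CPM in zQ175, 1474 ± 30.7 CPM in CK2α’(+/-) and 1463 ± 35.9 CPM in zQ175:CK2α’(+/-) mice.

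Idh3b (ENSMUSG00000027406, chromosome 2, 130279309 to 130284547), a regulatory subunit of the NAD-dependent isocitrate dehydrogenase, measured 145, 125, 150.5, 144 and 149 CPM in WT mice and 133, 116, 125, 125 and 126 CPM in zQ175 mice. CK2α’(+/-) mice had 142, 144 and 152 CPM and zQ175:CK2α’(+/-) mice 130.5, 114, 128, 136 and 125 CPM. Apart from WT replicate 2, every mouse without the zQ175 allele lay above every mouse with it. The change was -0.195 ± 0.052 SE averaged over the CK2α’ genotypes (edgeR FDR = 0.0494) and -0.19 ± 0.068 SE in zQ175 against WT (FDR = 0.204). The catalytic subunit Idh3a and the second regulatory subunit Idh3g changed by 0.079 and -0.081 in the averaged contrast and did not pass (FDR = 0.620 and 0.599). With the astrocyte sum Idh3b had a within-group correlation of -0.531 and Pdhb of -0.489 over 18 mice, and with the erythrocyte sum these were -0.719 and -0.612. The erythrocyte markers summed to 0.0444 to 1.68 CPM in WT, 0.108 to 7.25 CPM in zQ175, 0.601 to 26.0 CPM in CK2α’(+/-) and 0.106 to 22.4 CPM in zQ175:CK2α’(+/-) mice. The lowest of these sums lie near the floor of counting, which limits their correlations. The part of astrocyte and blood content in the differences of Idh3b and Pdhb was not tested. Citrate synthase Cs, the oxoglutarate dehydrogenase subunits Ogdh and Dlst and fumarase Fh1 had averaged changes between -0.067 and 0.022.

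RefSeq promoter windows of the lactate dehydrogenase pair and of Pdhb are shown, to set both LDH subunits beside the pyruvate dehydrogenase subunit that fell with Ldhb. Each run reads from 5′ to 3′ on the gene’s strand in GRCm38.p6, those of Ldha and Ldhb end at the base before the RefSeq transcript start, and capitals mark ACGTG (a form of the core of hypoxia-response elements and part of the CACGTG E-box) or GGGCGG (the GC box) on either strand. Ldha lies at chr7:46845554-46845803 (plus strand, the first of its windows), Ldhb at chr6:142507958-142508207 (minus strand) and Pdhb at chr14:8173026-8173242 (minus strand, cut to 217 bases because the other 33 lie in an annotated exon).
Ldha: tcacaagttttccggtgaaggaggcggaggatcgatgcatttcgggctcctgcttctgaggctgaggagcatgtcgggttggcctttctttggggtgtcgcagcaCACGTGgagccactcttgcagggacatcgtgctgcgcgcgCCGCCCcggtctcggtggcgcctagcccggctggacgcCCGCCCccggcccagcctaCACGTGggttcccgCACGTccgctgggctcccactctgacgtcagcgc
Ldhb: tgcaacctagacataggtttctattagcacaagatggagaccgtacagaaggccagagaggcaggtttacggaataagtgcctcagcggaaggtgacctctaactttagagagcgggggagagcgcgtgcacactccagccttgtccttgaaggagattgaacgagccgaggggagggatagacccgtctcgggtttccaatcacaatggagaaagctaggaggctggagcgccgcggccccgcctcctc
Pdhb: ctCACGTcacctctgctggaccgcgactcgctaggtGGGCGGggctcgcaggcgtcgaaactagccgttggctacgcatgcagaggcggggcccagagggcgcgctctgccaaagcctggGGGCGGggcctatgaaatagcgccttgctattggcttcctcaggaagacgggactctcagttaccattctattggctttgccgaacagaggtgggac
The printed Ldha window held all of the marked motifs, that of Pdhb held ACGTG and the GC box but not the E-box, and that of Ldhb held none of them. The second Ldha window, at chr7:46846832-46847081, also held none of them, so the contrast between the subunits rests on the window printed. Forms of the hypoxia-response core that begin with another base were not searched. Windows were present for 37 of the 40 genes (54 windows). ACGTG was in 44.4% of them against 16.6% of all 32817 promoter windows, CACGTG (which also counts as ACGTG, on both strands) in 14.8% against 6.02%, and GGGCGG in 51.9% against 32.7%. The median GC content was 60.4% in the members’ windows and 52.4% in all windows. A match is a stretch of letters and does not show binding.

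Genes of the set varied together only in part. After subtraction of group means, the 741 pairs of the 39 tested genes had a median Pearson correlation of 0.111 across the 18 mice, ranging from -0.713 (Pgm2l1 with Ldhb) to 0.834 (Tpi1 with Idh3b). Pairs among glycolytic enzymes and lactate dehydrogenases had a median of 0.258 (136 pairs), pairs within the group of cycle enzymes and Mdh1 0.159 (55 pairs) and pairs of transporters -0.079 (6 pairs). High pairs lay both within a pathway, as Aldoa with Tpi1 at 0.760, Aldoa with Gpi1 at 0.757 and Dlst with Fh1 at 0.722, and across pathways, as Pcx with Ogdh at 0.819 and Pdhb with Fh1 at 0.732. The genes that fell in the averaged contrast were not uniformly tied to each other within groups: Eno1 correlated at 0.676 with Idh3b and at -0.030 with Ldhb. All pairs share libraries and normalization, and these values are descriptions.

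**Figure D5:**
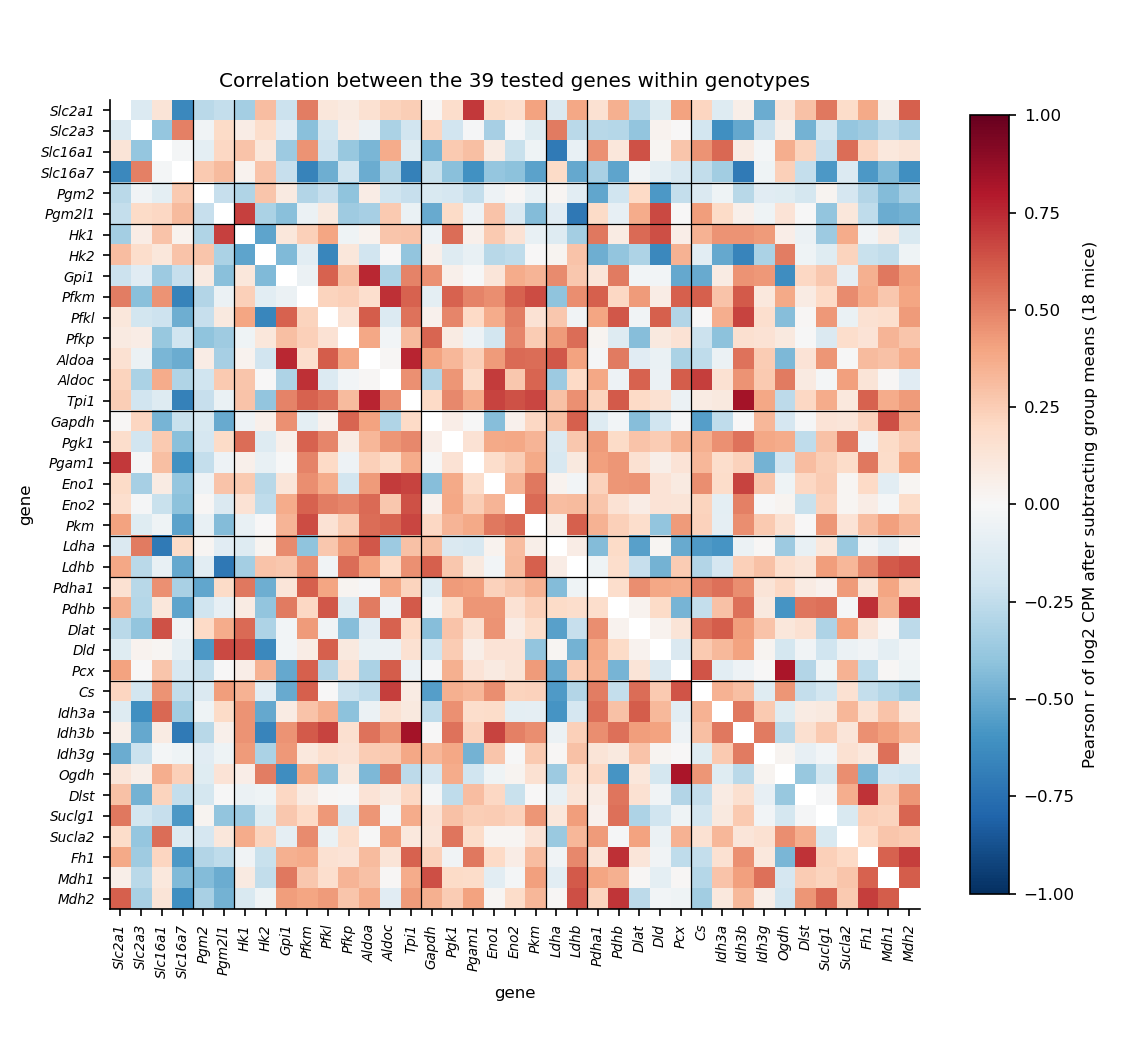
Pearson correlation of log2 CPM between each pair of the 39 tested genes (both axes) over 18 mice after subtraction of the group means, as a colour scale from -1 to 1. Positive values within glycolysis are interrupted by Hk2 (-0.655 with Pfkl) and Gapdh (-0.425 with Eno1), and the range runs from -0.713 (Pgm2l1 with Ldhb) to 0.834 (Tpi1 with Idh3b).

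Outside the 40 genes, 75 further genes of connected pathways were counted, of which 72 were tested. In zQ175 against WT mice, where 1.1% of all genes passed, 1 of the 72 rose, Gpd2 (0.40 ± 0.10 SE, edgeR FDR = 0.0902), the mitochondrial enzyme of the glycerol phosphate shuttle that passes electrons from cytosolic NADH, and 1 fell, Taldo1 (-0.44 ± 0.091 SE, FDR = 0.0469), the transaldolase of the pentose phosphate pathway. Averaged over the CK2α’ genotypes, where 4.9% of all genes passed, 4 of the 72 did: Gpd2 rose (0.26, FDR = 0.0790), and Taldo1 (-0.22, FDR = 0.0965), Phkg1 (-0.55, FDR = 0.0586), a phosphorylase kinase subunit that activates glycogen breakdown, and Mpc1 (-0.27, FDR = 0.0753), a subunit of the mitochondrial pyruvate carrier, fell. In zQ175 against WT the call was lost in 16 of 26 alternative fits for Gpd2 and in 5 for Taldo1. Both calls were lost with only the 2 groups compared, without WT replicate 1 or 3, without zQ175 replicate 5 and without the libraries rich in choroid plexus markers. In the last case the log2 fold change was 0.29 for Gpd2 (FDR = 0.583) and -0.39 for Taldo1 (FDR = 0.496). In the averaged contrast the calls of Gpd2, Taldo1, Phkg1 and Mpc1 were lost in 11, 15, 3 and 9 of 25 fits, in each case without WT replicate 3, without CK2α’(+/-) replicate 3 and without the choroid plexus libraries. The remaining cycle enzymes, among them aconitase and succinate dehydrogenase, had 8 of 10 negative changes in zQ175 against WT, and none of the 10 passed in edgeR. DESeq2 called 2 shuttle genes, 1 pyruvate transport or regulation gene and 1 pentose phosphate gene there, against 5.15% of its genes. In the averaged contrast it called 2 shuttle genes and 1 each of the remaining cycle, pyruvate, glycogen and pentose phosphate lists, against 8.78%. In the other 4 contrasts none of the 72 genes passed in edgeR or DESeq2, and those with an unadjusted p under 0.05 numbered 11 in zQ175:CK2α’(+/-) against WT, where 9.13% of all genes had one, 4 in zQ175:CK2α’(+/-) against zQ175 (6.27%), 4 in CK2α’(+/-) against WT (4.48%) and 3 in the interaction (5.39%). The median change of the 72 genes was -0.019 in zQ175 against WT mice.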

How the data were processed

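Striatal RNA was sequenced from 18 mice with a stranded total RNA kit. The raw counts per gene deposited by the authors were made with Subread 1.6.2 from HISAT2 2.1.0 alignments to GRCm38 of reads trimmed by Trimmomatic, after duplicates and poorly mapping reads had been taken out. The deposited gene lengths are summed exon lengths in bases. Whether counting used the strand is not given in the sources used here. At least 10% of the Pdha1, Pkm, Pgm1 and Pfkm exons overlap exons of the opposite strand, and these genes carry that uncertainty.

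Tests were run in edgeR 4.0.16 under R 4.3.3 (TMM, filterByExpr, quasi-likelihood test, genotype as the only factor, all 18 libraries, 20914 genes tested) and, as an alternative, with DESeq2 1.42.0, and both were tested on simulated data. SE is the log2 fold change divided by the square root of F. Every adjusted p is from edgeR unless DESeq2 is named. TPM used the deposited lengths and raw counts, and log2 CPM used a prior count of 2. Libraries of a group correlated at 0.950 to 0.972, and the separate mice set the error given.

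The 40 genes, their roles, the connected pathway genes and the marker lists were chosen with earlier results of these data known. Values in every mouse are given for each member with FDR under 0.1 in any contrast and, in a role group without such a member, for that with the lowest p in zQ175 against WT, and for Pkm and Tpi1, which were added after their values were seen. The alternatives were DESeq2, its size factors in edgeR, no filter, a robust fit, a replicate block, Xist as covariate, FDR 0.05, only the groups compared, and leaving out each mouse. Leaving out the 4 libraries with over 100 CPM of choroid plexus markers was added after the data were seen. Promoter windows cover 250 bases before RefSeq transcript starts (GRCm38.p6). The motif and GC shares use whole windows, some of which lie partly in annotated exons, and only the printed Pdhb run was cut.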

Additional observations from a re-analysis of the deposited data

Results flagged for a closer look

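Among the 21 groups of 5 mice for the 7 genes chosen by the rule for named genes, 2 held a mouse far from the others, where chance places about 1 in 20. Pkm and Tpi1, added after their values were seen, were not screened. Idh3b was 125 CPM in WT replicate 2 and 144 to 150.5 CPM in the other WT mice, a gap of 0.769 of the group’s range on the log2 scale. Pgm2l1 was 144 CPM in the same mouse and 107 to 116 CPM in the other WT mice, a gap of 0.734 of the range on the log2 scale.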

How the results depend on the processing

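The count of 3 members for zQ175 against WT became 5 with DESeq2, 1 with the Xist level as covariate (Pgm2l1), and 0 with the replicate block, with only the libraries compared, at FDR 0.05, or without the 4 libraries rich in choroid plexus markers. Leaving out single mice gave 0 to 7. The averaged count of 5 became 8 with DESeq2, 3 without the filter (Aldoc, Eno1 and Ldhb) and 0 without the choroid plexus libraries, with 1 to 7 when single mice were left out, and stayed at 5 with the replicate block. For zQ175:CK2α’(+/-) against WT and against zQ175 the count of 0 became 1 with DESeq2 (Pdhb and Pgm2l1), and against zQ175 also 1 without the filter (Pgm2l1, adjusted p = 0.0136). The cause of these changes was not tested, except that leaving out libraries leaves fewer samples. Over all genes, zQ175 against WT called 230, or 847 with DESeq2, 451 without the filter, 98 with the replicate block, 159 with the Xist covariate, 0 with only the libraries compared (2337 at an unadjusted p under 0.05), 1 without the choroid plexus libraries (1658 at p under 0.05) and 0 to 587 without single mice.

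For the 7 genes chosen by the rule for named genes, which leaves out Pkm and Tpi1, no change of sign occurred in a called value: of the recomputed fold changes 995 kept their direction and side of the threshold, 27 changed sign while passing in neither fit, 52 no longer passed and 4 newly passed. In zQ175 against WT, Pgm2l1 ranged from 0.42 to 0.62 (adjusted p 0.00510 to 0.498), Eno1 from -0.33 to -0.23 (0.0142 to 0.559) and Ldhb from -0.36 to -0.25 (0.0223 to 0.536). Replicate numbers did not pair the mice: 2 of 24 same-numbered pairs correlated over 0.1 (-0.136 to 0.120), and 1 of 18 libraries correlated best with its own number. Low counts limit Pgm1, Pgm2 and Hk2.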
